A study of Mus musculus with 6 samples.

Results

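The 10 genes described here encode the myosin heavy and light chains by which skeletal muscle fibre types are told apart, and they were read in bulk RNA-seq of mouse uterus. They were taken from the deposited table by gene symbol, with earlier results of these data known, and are 10 of the 26018 genes listed. They comprise adult heavy chains (Myh4, Myh1, Myh2 and Myh7), developmental heavy chains (Myh3 and Myh8) and light chains (Mylpf, Myl2, Myl1 and Myl3). Uteri came from 3 Tcf21 d/d females, labelled conditional knockouts (cKO), and from 3 Tcf21 f/f control females. All 6 mice were 6 weeks old, matched for body weight and untreated, and each gave 1 library. The labels name neither the Cre driver and the cells in which it acts nor the deleted part of Tcf21. The study looked for genes downstream of the transcription factor TCF21, a helix-loop-helix protein made by mesenchymal cells, in the developing uterus.

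Libraries held 14584450 to 16579573 reads assigned to genes. Values are the authors' normalised read counts, that is, reads divided by 1 size factor per library. Tcf21 itself had 26.0, 0 and 0 normalised reads in cKO replicates 1, 2 and 3, against 341.4, 151.9 and 144.1 in control replicates 1, 2 and 3. The groups did not overlap, while its log2 fold change of −6.03 ± 1.25 (SE) had an adjusted p of 0.0765 in limma with Benjamini-Hochberg adjustment. A count of 0 still allows up to 3 reads in a library, counting error only. The wall of the uterus is built of smooth muscle, and 10 smooth muscle markers together took 0.575 ± 0.0929% of reads in cKO and 1.39 ± 0.290% in control libraries (SD, n = 3 each). Des, the marker with the most reads, had 76230 ± 15687 normalised reads in cKO and 72716 ± 10958 in controls. The median log2 fold change of the 10 markers was −3.28, so the sum understates the fall of most of them. The 12 uterine markers, of which 11 were analysed here, summed to 0.0109 to 0.0190% of reads in cKO and 0.0263 to 0.0556% in control libraries. Among them Foxa2, a gene of uterine glands, had 0 reads in all 3 cKO libraries and in control replicate 3. In bulk tissue, fewer cells of a type and less RNA per cell cannot be told apart.

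Myosin is the motor of muscle contraction. Each molecule pairs 2 heavy chains, which split ATP and pull on actin, and each heavy chain carries an essential and a regulatory light chain. In mouse limb and trunk muscle, Myh4 marks the fastest, glycolytic fibres (type 2B), Myh1 marks type 2X, Myh2 marks fast oxidative type 2A, and Myh7 marks slow type 1 fibres, which also use the heavy chain of heart. Myh3 and Myh8 are the embryonic and perinatal heavy chains, made before birth and again in regenerating fibres. Mylpf is the fast regulatory and Myl1 the fast essential light chain, and Myl2 and Myl3 are their slow and cardiac counterparts.

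Of the 6 heavy chain genes, 5 lie head to tail in a cluster of 230.335 kb on chromosome 11, chr11:67078300-67308634 on GRCm38, in the order Myh3, Myh2, Myh1, Myh4 and Myh8, all on the plus strand. Only 2.534 kb separate Myh2 from Myh1, and 13.453 kb separate Myh1 from Myh4. Myh7 lies apart on the minus strand at chr14:54970684-54994626. The light chain genes are scattered. Mylpf lies at chr7:127208890-127214298 on the plus strand, Myl1 at chr1:66924295-66945404 on the minus strand, Myl2 at chr5:122100951-122113472 and Myl3 at chr9:110741861-110769798, both on the plus strand.

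The heavy chains are close relatives, and reads can be told apart only where their sequences differ. The 60 coding bases below, from GENCODE vM21 transcripts, are aligned to Myh1, and capitals mark the bases that differ from it. They are shown as a stretch that separates all 6 genes, and are richer in differences than the coding sequences as a whole.
Myh4: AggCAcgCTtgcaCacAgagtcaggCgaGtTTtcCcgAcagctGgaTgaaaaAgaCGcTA
Myh1: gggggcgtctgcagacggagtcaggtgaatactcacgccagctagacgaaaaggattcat
Myh2: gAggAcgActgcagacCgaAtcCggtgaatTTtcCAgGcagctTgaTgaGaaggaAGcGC
Myh7: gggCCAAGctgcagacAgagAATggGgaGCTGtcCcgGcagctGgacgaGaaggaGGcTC
Myh3: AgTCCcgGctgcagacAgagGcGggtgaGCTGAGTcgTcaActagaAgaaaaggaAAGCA
Myh8: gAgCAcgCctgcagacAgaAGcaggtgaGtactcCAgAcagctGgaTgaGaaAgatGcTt
In this window Myh4 differed from Myh1 at 20 bases, Myh2 at 18, Myh7 at 22, Myh3 at 23 and Myh8 at 17.

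Elsewhere some members are identical over longer stretches. Myh1 and Myh2 matched at 90.9% of aligned coding bases, Myh4 and Myh1 at 90.1%. The longest stretch that Myh1 and Myh2 share without a difference is 268 coding bases, printed here because sequence from within it alone fits both genes equally well.
Myh1 and Myh2: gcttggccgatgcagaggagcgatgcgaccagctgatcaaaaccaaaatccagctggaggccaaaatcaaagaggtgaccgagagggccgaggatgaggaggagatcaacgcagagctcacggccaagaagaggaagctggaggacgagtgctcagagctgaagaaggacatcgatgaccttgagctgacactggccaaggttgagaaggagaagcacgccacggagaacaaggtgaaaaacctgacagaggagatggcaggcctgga
Of all 100-base windows of its transcripts, Myh1 shared 14.7% with another gene, Myh7 13.9%, Myh2 11.2%, Myh8 6.61%, Myh4 3.85% and Myh3 1.15%. Myl1 shared 9.36% of such windows with the processed pseudogene Mylf-ps, and Mylpf, Myl2 and Myl3 shared none. Matches on either strand were counted. Those of Myh7 fell on Myh6 and on antisense genes such as Mhrt, and those of Myh1 included the antisense gene Myhas. Where an antisense gene overlaps a member, the question is the strand of the read, not the number of matches. The labels do not say how the authors counted reads with several matches. The levels of Myh1, Myh2, Myh8, Myh4, Myh3, Myl1 and, where it matches Myh6, Myh7 therefore carry that uncertainty. Myh8 shares windows with Myh1, Myh2, Myh4 and Myh13. In controls it averaged 263 normalised reads per kilobase, against 11118 for Myh1 and 8131 for Myh4. How many of the Myh8 reads fall in shared windows was not tested. The labels give no strand setting either. Antisense genes overlap 13.3% of the exon bases of Myh7, 8.11% of those of Myh1, 4.65% of Myl3, 3.32% of Myh2 and 3.08% of Myl2.

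Adult heavy chains came first in the order of roles. Myh4 had 65698, 172910 and 108146 normalised reads in cKO replicates 1, 2 and 3, against 18685, 100693 and 27373 in control replicates 1, 2 and 3. Replicate 2 was the highest library of each group, and control replicate 2 lay above cKO replicate 1, so the groups overlapped. The log2 fold change of Myh4 was 1.53 ± 0.66 (SE), the largest among the 10 genes, with an adjusted p of 0.376 (limma, Benjamini-Hochberg). It was 2.24 without control replicate 2 and 1.03 without control replicate 1.

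Myh1 had 98711, 118764 and 143966 normalised reads in cKO, against 66178, 79181 and 66530 in control libraries. All 3 cKO libraries lay above all 3 controls, and 9.04% of the 16314 genes tested were separated in this direction. The log2 fold change was 0.76 ± 0.24, with an adjusted p of 0.191 (limma, Benjamini-Hochberg). Myh2 had 31494, 18815 and 39861 normalised reads in cKO, against 20684, 13689 and 19274 in control libraries. Replicate 2, the highest library of each group for Myh4, was the lowest of each group for Myh2, and cKO replicate 2 lay below 2 controls. The log2 fold change of Myh2 was 0.70 ± 0.30, with an adjusted p of 0.340 (limma, Benjamini-Hochberg).

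Slow Myh7 had 6152, 10526 and 9027 normalised reads in cKO, against 5893, 4313 and 6536 in control libraries. Only cKO replicate 1 fell within the control range. Its log2 fold change was 0.61 ± 0.25, with an adjusted p of 0.321 (limma, Benjamini-Hochberg).

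**Figure D1:**
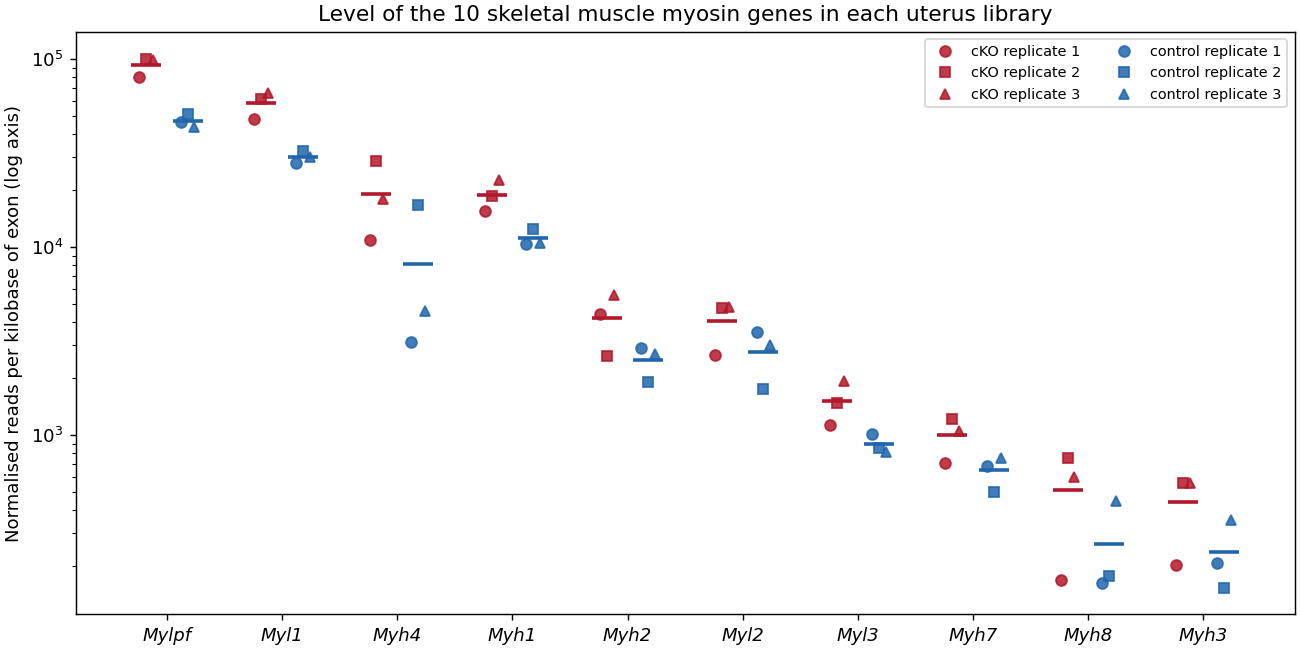
Normalised reads per kilobase of exon (log axis) of the 10 myosin genes, with the 3 cKO libraries left of the 3 control libraries, 1 point per library and a bar at each group mean. Mylpf, Myl1, Myh1 and Myl3 are the genes whose cKO libraries all lie above the control libraries, and Myh4 spans the widest range, 3106 to 28742 normalised reads per kilobase.

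Both developmental heavy chains had reads in all 6 libraries and varied among animals of 1 group. For Myh8, the part of these reads that comes from windows shared with Myh1, Myh2 and Myh4 was not tested. Embryonic Myh3 had 1231, 3362 and 3362 normalised reads in cKO, against 1267, 936 and 2144 in control libraries. Perinatal Myh8 had 1982, 8915 and 7059 normalised reads in cKO, against 1928, 2087 and 5278 in control libraries. For both genes cKO replicate 1 stood with the lower controls, control replicate 3 was the highest control, and the groups overlapped. Myh8 differed 4.50-fold between cKO libraries, the widest spread within that group for any of the 10 genes. The log2 fold changes were 0.82 ± 0.47 for Myh3 and 0.85 ± 0.68 for Myh8, with adjusted p of 0.508 and 0.655 (limma, Benjamini-Hochberg). Leaving out 1 library gave 0.55 (without control replicate 2) to 1.30 (without cKO replicate 1) for Myh3, and 0.43 (without cKO replicate 2) to 1.52 (without cKO replicate 1) for Myh8.

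Of the light chains, the fast pair had the tightest values. Mylpf had 85615, 106675 and 105134 normalised reads in cKO, against 48884, 54301 and 46104 in control libraries. No library of one group came near the other, and the means stood at 99141 ± 11739 in cKO and 49763 ± 4169 in control libraries (SD, n = 3 each). The log2 fold change was 0.99 ± 0.21, with an adjusted p of 0.0714 (limma, Benjamini-Hochberg), the lowest among the 10 genes and above the threshold of 0.05. Without control replicate 1, where 0.685% of genes were called higher, the adjusted p was 0.0417. Leaving out any other library kept it above 0.05, from 0.0662 (without control replicate 2) to 0.345 (without cKO replicate 3).

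Myl1 had 99962, 126700 and 137662 normalised reads in cKO, against 58145, 67460 and 62325 in control libraries. The groups were again apart, at 0.94 ± 0.23 on the log2 scale, with an adjusted p of 0.101 (limma, Benjamini-Hochberg). The pseudogene Mylf-ps, with which Myl1 shares windows, had 2230, 2912 and 3082 normalised reads in cKO, against 1101, 1824 and 1515 in control libraries. The ratio of Mylpf to Myl1, as levels per kilobase, was 1.67, 1.64 and 1.49 in cKO and 1.64, 1.57 and 1.44 in control libraries, so the fast light chains kept close proportions in all 6 animals.

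Slow Myl3 had 2321, 3031 and 3972 normalised reads in cKO, against 2062, 1746 and 1663 in control libraries. The groups were separated, by 2321 in the lowest cKO against 2062 in the highest control library. The log2 fold change was 0.74 ± 0.21, with an adjusted p of 0.162 (limma, Benjamini-Hochberg). Slow Myl2 had 5193, 9216 and 9356 normalised reads in cKO, against 6869, 3427 and 5894 in control libraries. Replicate 1 of the cKO group lay within the control range, and the log2 fold change was 0.56 ± 0.32, with an adjusted p of 0.492 (limma, Benjamini-Hochberg). It was 0.27 without control replicate 2 and 0.84 without cKO replicate 1.

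All 10 genes had a fold change above 0, a direction shared by 50.3% of all genes tested. At an unadjusted p under 0.05, 6 of the 10 were higher in cKO, against 6.11% of all genes. The 10 were chosen with earlier results of these data known, so these comparisons with all genes are descriptions. None of the 10 was called at an adjusted p under 0.05 by limma, where 0.276% of all genes were called higher, nor by edgeR, where 0.0797% were. Their ratios of group means ran from 1.47 (Myl2) to 2.36 (Myh4). In simulated data limma called 0% of 1.5-fold and 6.12% of 2-fold changes, so the lack of a call does not show that a gene is unchanged. Limma without a filter on low reads, which called 0.315% of genes higher, called Mylpf and Myl1. DESeq2, which called 1.75% of genes higher, called 4 of the 10, and the authors' deposited table called 4 as well, where 0.872% of all genes were called higher. In both cases these were Mylpf, Myl1, Myh1 and Myl3. Both results rest on the same reads, so they are not independent. DESeq2 gave Mylpf a log2 fold change of 0.995 and Myl3 one of 0.770, close to the deposited values that follow. The authors' deposited table gave Mylpf a log2 fold change of 0.994 with an adjusted p of 1.1e-05 and Myl3 one of 0.769 with an adjusted p of 0.0277. These 4 genes are also the ones whose groups did not overlap, a separation that 9.04% of all genes tested showed in this direction. The separation and the calls rest on the same 6 libraries. The median log2 fold change was 0.79 over the 10 genes and 0.002 over all genes tested.

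**Figure D2:**
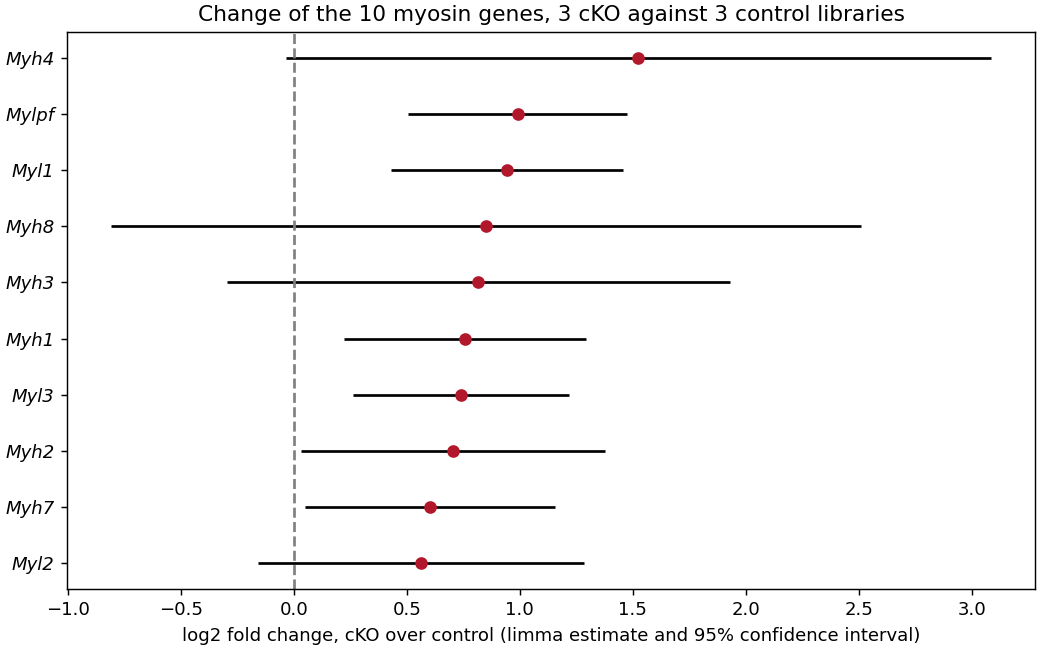
Log2 fold change of each myosin gene, cKO over control, as the limma estimate (point) with its 95% confidence interval (line), on log2(normalised reads + 1) over 3 libraries a group. All 10 estimates lie right of 0, and the intervals of Myh4, Myh8, Myh3 and Myl2 reach below it.

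Levels per kilobase of exon, which allow genes to be compared, put the fast light chains on top. Mylpf had 93353 ± 11054 normalised reads per kilobase in cKO and 46858 ± 3925 in control libraries (SD, n = 3 each here and below). Myl1 followed with 58554 ± 9350 per kilobase in cKO and 30204 ± 2250 in controls. Among heavy chains, Myh4 had 19213 ± 8975 per kilobase in cKO and 8131 ± 7488 in controls, and Myh1 had 18964 ± 3569 in cKO and 11118 ± 1166 in controls. Myh4 and Myh1, neighbours in this order, did not differ beyond their spread in either group.

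The next levels were a step lower. Myh2 had 4211 ± 1485 normalised reads per kilobase in cKO and 2506 ± 518 in controls, and Myl2 had 4063 ± 1212 in cKO and 2768 ± 910 in controls. Those neighbours lay within each other's spread on the deposited lengths. Myl3 had 1521 ± 405 per kilobase in cKO and 892 ± 103 in controls, and Myh7 had 995 ± 258 in cKO and 648 ± 133 in controls. The developmental chains were lowest, with 508 ± 305 per kilobase for Myh8 and 438 ± 203 for Myh3 in cKO, and 263 ± 161 for Myh8 and 239 ± 103 for Myh3 in controls, again inside each other's spread. The deposited length exceeds the longest coding transcript for 9 of the 10 genes, by 2.67 times for Myl2, 2.18 times for Myl3, 1.92 times for Myl1, 1.91 times for Myh8, 1.39 times for Mylpf and 1.38 times for Myh7. Levels per kilobase therefore depend on the length. On transcript length, chosen after the data were seen, Myl2 had 10867 ± 3243 normalised reads per kilobase in cKO and 7403 ± 2434 in controls, and Myh2 had 4941 ± 1742 in cKO and 2940 ± 608 in controls, no longer within each other's spread. Mylpf and Myl1 stayed on top and Myh3 at the bottom on both lengths.

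**Figure D3:**
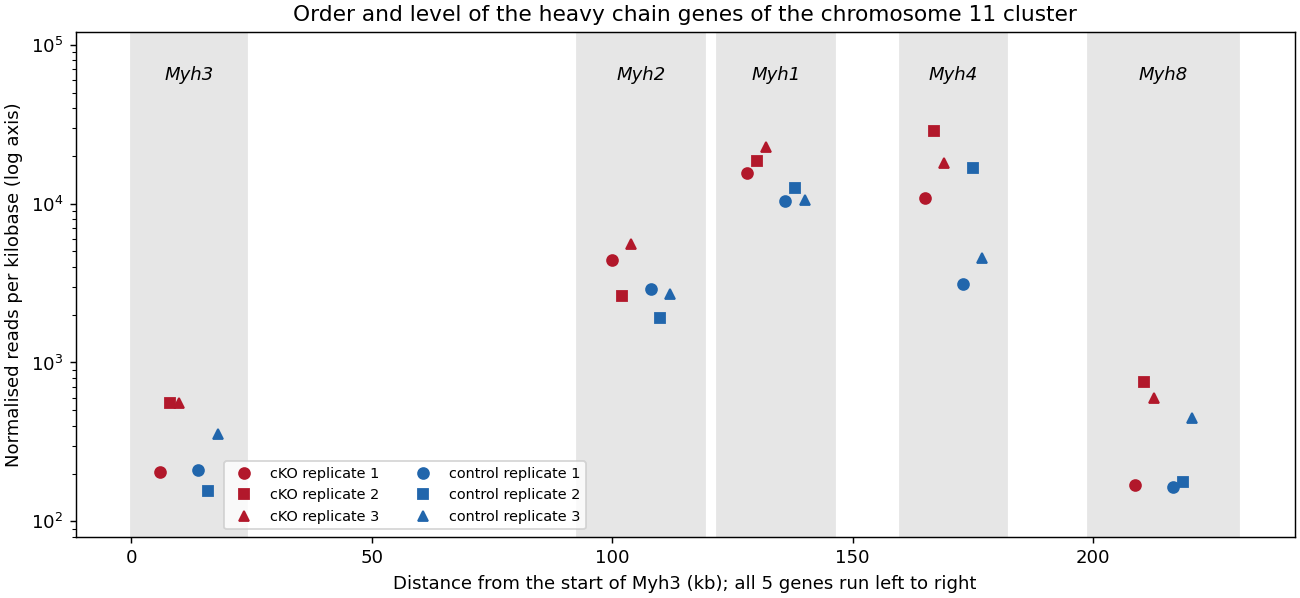
Normalised reads per kilobase (log axis) of the 5 heavy chain genes of the chromosome 11 cluster, placed by their distance in kilobases from the start of Myh3, with grey bands for the genes and 1 point per library, shifted sideways for clarity. Myh1 and Myh4, which are neighbours, stand highest, and Myh3 and Myh8, at the ends, stand lowest in both groups.

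The fibre type make-up of each library was read as the share of each gene in the summed per-kilobase level of its class. These shares are descriptions, since 3 against 3 libraries cannot give an exact p below 0.1. Type 2B Myh4 took 34.6, 56.0 and 38.0% of the 4 adult heavy chains in cKO, against 18.2, 52.9 and 24.6% in control libraries. Type 2X Myh1 took 49.2, 36.4 and 47.9% in cKO, against 60.9, 39.4 and 56.7% in control libraries. In replicate 2 of each group Myh4 exceeded Myh1, and in the other 4 libraries Myh1 exceeded Myh4. The mean share of Myh4 was 42.9 ± 11.5% in cKO and 31.9 ± 18.5% in controls (SD, n = 3 each), a difference of 10.98 percentage points that lay within the spread of the controls. It was 21.5 points without control replicate 2 and 4.10 points without control replicate 1.

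Fast oxidative Myh2 took 14.0, 5.14 and 11.8% of adult heavy chains in cKO, against 16.9, 6.07 and 14.6% in control libraries. Its ratio to Myh1, per kilobase, was 0.284, 0.141 and 0.246 in cKO and 0.278, 0.154 and 0.258 in controls. Replicate 2 had the lowest ratio of each group. Slow Myh7 took 2.26, 2.38 and 2.22% in cKO, against 4.0, 1.58 and 4.10% in control libraries. The 3 cKO libraries agreed within 0.0856 points (SD), while control replicate 2 lay below them and the other two controls above. On transcript length Myh7 took 2.96, 3.18 and 2.92% in cKO and 5.16, 2.12 and 5.32% in controls, again with overlap.

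The developmental chains Myh3 and Myh8 together took 1.16, 2.49 and 2.38% of all 6 heavy chains in cKO, against 2.13, 1.04 and 4.16% in control libraries. The lowest and the highest share were both controls. The difference of the means, −0.43 points, was 0.43 points without control replicate 3, so that its sign rests on that library. Among light chains, slow Myl2 took 3.20, 4.49 and 4.62% of the regulatory pair in cKO, against 7.11, 3.32 and 6.51% in controls. On transcript length these shares were 5.99, 8.32 and 8.55% in cKO and 12.9, 6.22 and 11.8% in controls. Slow Myl3 took 2.30, 2.37 and 2.84% of the essential pair in cKO, against 3.47, 2.56 and 2.64% in controls. For both slow light chains the mean share was lower in cKO, and the groups overlapped. Myl2 and Myh7, a light and a heavy chain of slow fibres, had their lowest shares among controls in the same library, replicate 2.

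**Figure D4:**
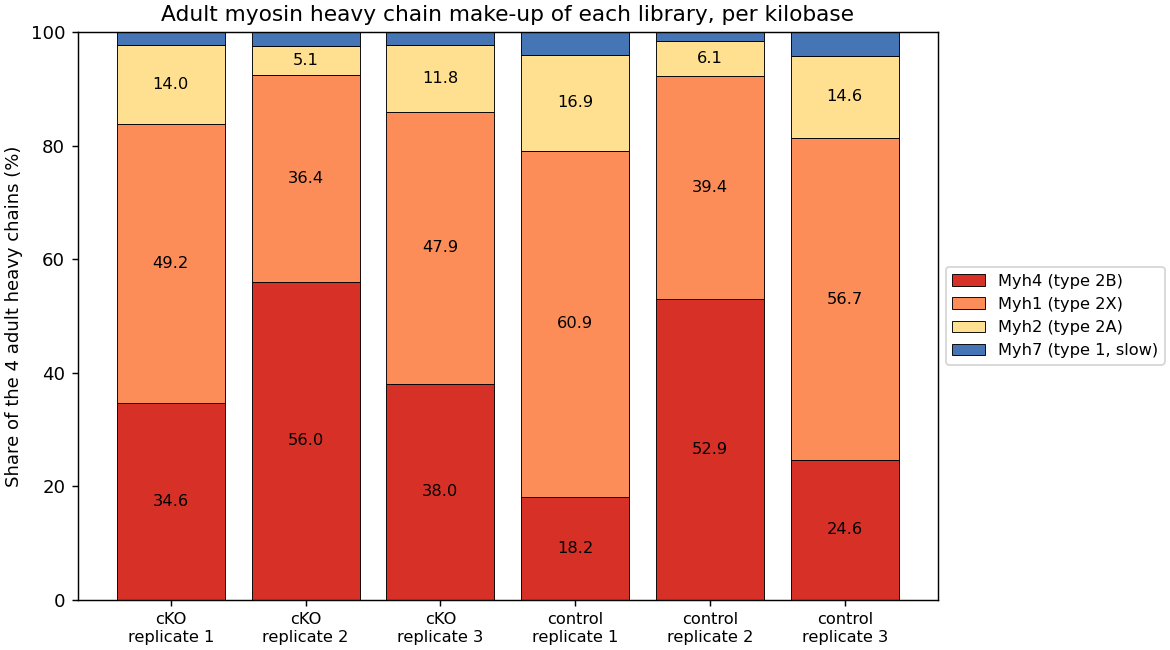
Share, in percent, of each of the 4 adult heavy chains in their summed level per kilobase, 1 stacked bar per library, cKO left of control. Myh4 and Myh1 fill most of each bar, and replicate 2 of both groups has the largest Myh4 share of its group.

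While the make-up overlapped, the share of reads on the 10 genes together did not. The 10 genes together took 2.59, 3.71 and 3.52% of all reads in cKO, against 1.30, 2.25 and 1.74% in control libraries, with means of 3.27 ± 0.602% in cKO and 1.76 ± 0.475% in controls (SD, n = 3 each). All cKO libraries lay above all controls, as they did for 4 of the 10 genes singly and for 9.04% of all genes tested. The 6 heavy chains summed to 31957, 52606 and 48425 normalised reads per kilobase in cKO and to 17478, 31952 and 19284 in controls. Here cKO replicate 1 and control replicate 2 were nearly equal. The 3 fast adult heavy chains overlapped, with a sum of 30871 in cKO replicate 1 and 31119 in control replicate 2.

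The share of reads on other muscle genes was taken from genes that are not myosins. The 15 pan-muscle genes, which all fibre types use, took 3.07, 4.26 and 4.40% of reads in cKO, against 1.66, 3.18 and 2.40% in control libraries, and none of them was at 0 in any library. Here the lowest cKO library lay below the highest control. Per 100 reads on these genes, Myh1 had 20.8, 17.9 and 20.3 reads in cKO and 22.4, 17.1 and 19.9 in controls. Myh4 had 13.9, 26.0 and 15.2 such reads in cKO and 6.33, 21.7 and 8.18 in controls. On this scale Mylpf averaged 16.3 ± 1.65 in cKO and 14.0 ± 2.43 in controls, and Myl1 19.9 ± 1.10 in cKO and 17.6 ± 2.72 in controls (SD, n = 3 each). Relative to pan-muscle reads, the groups overlapped for all 10 genes. The skeletal muscle actin gene Acta1 weighs most in this scale, with 348961 ± 80618 normalised reads in cKO and 186632 ± 47137 in controls. Ttn had 69277 ± 12846 in cKO and 39829 ± 6453 in controls.

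**Figure D5:**
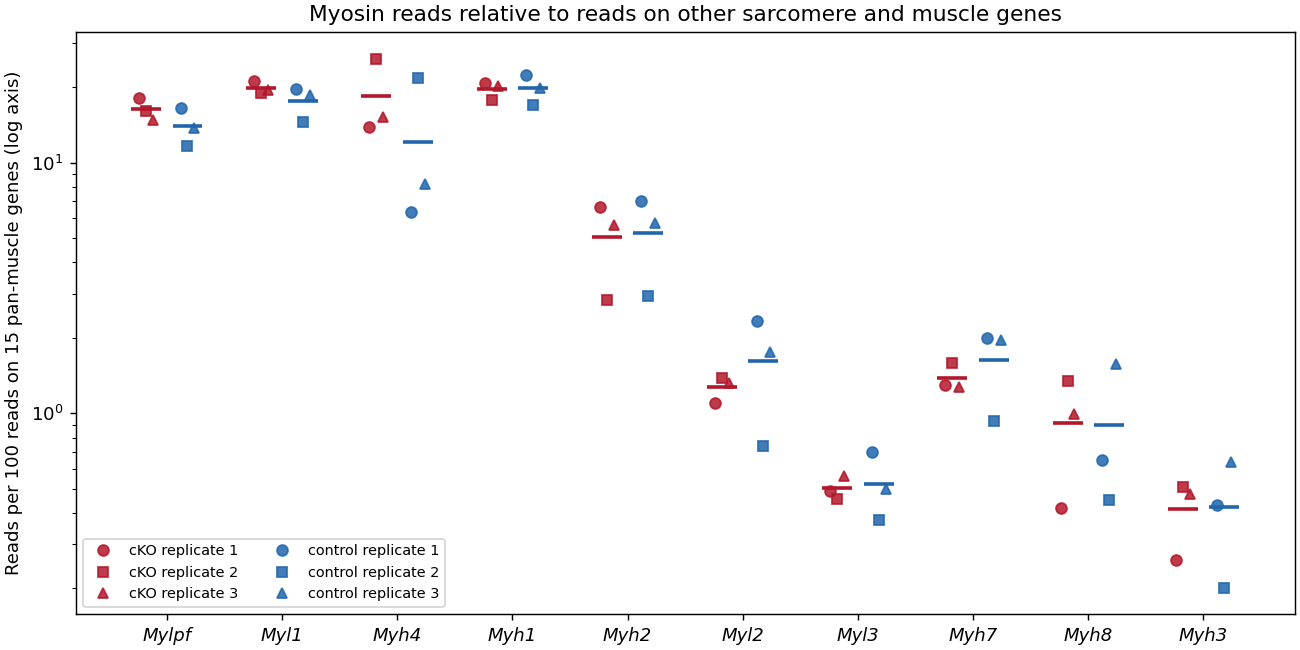
Reads of each myosin gene per 100 reads on 15 pan-muscle genes (log axis), 1 point per library, cKO left of control. The cKO and control points of every gene overlap on this scale, for example Myh1 at 17.9 to 20.8 in cKO and 17.1 to 22.4 in control libraries.

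Genes that work beside the myosins were read from lists by role, each set beside the median log2 fold change of 0.002 over all genes tested. Of the 15 pan-muscle genes, 14 had a fold change above 0, with a median of 0.72. In limma 1 of them rose and none fell, where 0.889% of all genes were called lower. It was Tmod4, a cap of the thin filament, with 5632, 6956 and 6915 normalised reads in cKO and 3202, 3755 and 3269 in controls and an adjusted p of 0.0373 (limma, Benjamini-Hochberg). DESeq2 called 7 of the 15 higher and edgeR called none.

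Partners of fast fibres, such as fast troponins, the calcium pump and calcium stores of fast fibres, gave a median of 0.90 over 11 tested of 12 genes. The gene not tested was Tnnc2, the fast troponin C, which did not pass the filter on low reads and had 0 reads in control replicate 1. The authors' deposited table gave it a log2 fold change of −1.29 with an adjusted p of 1. Of the 11, 10 were above 0, and the other was the kinase gene Mylk4 at −1.52 with an adjusted p of 0.465 (limma, Benjamini-Hochberg). In limma, 1 of the 11 rose. This was Pgam2, the muscle phosphoglycerate mutase of glycolysis, at 1.09 ± 0.20 on the log2 scale, with an adjusted p of 0.0432 (limma, Benjamini-Hochberg). Sypl2, a membrane protein of the triad, had 1.02, Casq1, the fast calcium-storage protein, had 1.01, and the fast troponin I gene Tnni2 had 0.90 on the log2 scale, none past the threshold. DESeq2 called 6 of the 11 higher and edgeR none. These partners took 3.16 ± 0.523% of reads in cKO and 1.78 ± 0.656% in controls (SD, n = 3 each).

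Partners of slow fibres gave a median of 0.71 over 12 genes, all 12 of them above 0. Limma and edgeR called none, DESeq2 called 2 higher, and 8 had an unadjusted p under 0.05. Myom3, an M-band protein of slow and intermediate fibres, had the lowest adjusted p, 0.101 (limma, Benjamini-Hochberg), with a log2 fold change of 1.01 ± 0.24. Csrp3, a LIM protein of the Z disc, had 0.90, the fatty acid carrier Fabp3 0.71 and the Z-disc protein Myoz2 0.70 on the log2 scale. Slow partners took 0.615 ± 0.0789% of reads in cKO and 0.420 ± 0.0584% in controls (SD, n = 3 each). The difference between the fast and the slow list was not tested.

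Proteins that bind or handle myosin gave a median of 0.73 over 9 tested genes, all above 0. Limma and edgeR called none of them, DESeq2 called 1, and 4 had an unadjusted p under 0.05. Smyd1, a methyltransferase needed for thick filament assembly, had a log2 fold change of 0.83 ± 0.17 with an adjusted p of 0.0615 (limma, Benjamini-Hochberg). Myom2, which links thick filaments at the M band, had 0.77, and the myosin binding proteins Mybph and Mybpc1 had 0.80 and 0.63 on the log2 scale.

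Regulators of fibre type and muscle identity held 2 of the called genes. Myod1, the helix-loop-helix factor of muscle determination, had 243, 255 and 264 normalised reads in cKO and 107, 104 and 75.6 in controls. All cKO libraries lay at more than 2 times the highest control, and the log2 fold change was 1.41 ± 0.25 with an adjusted p of 0.0341 (limma, Benjamini-Hochberg). Vgll2, a TEAD cofactor of skeletal muscle, had 1191, 976 and 1539 normalised reads in cKO and 640, 465 and 527 in controls, at 1.17 ± 0.21 on the log2 scale, with an adjusted p of 0.0358 (limma, Benjamini-Hochberg). The median of the 16 regulators was 0.37, with 13 above 0, 2 called higher by DESeq2 and none by edgeR. Mef2c, a MADS-box factor of muscle genes, had 0.46 on the log2 scale, which was not past the threshold. Tmod4, Pgam2, Myod1 and Vgll2 each lost the call when any 1 cKO library was left out, with adjusted p of up to 0.239, 0.244, 0.221 and 0.200 (limma, Benjamini-Hochberg).

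Myod1 and its relatives are known to bind E boxes. The promoters were searched for the E box CANNTG, which reads the same on both strands, in the 250 bases before each RefSeq start (GRCm38.p6). All 10 genes matched, with 12 promoter entries, and 66.2% of 32851 promoters hold an E box. Windows are printed for the heavy chain with the largest fold change and the light chain with the lowest adjusted p, with E boxes in capitals.
Myh4, chr11:67237562-67237811, plus strand: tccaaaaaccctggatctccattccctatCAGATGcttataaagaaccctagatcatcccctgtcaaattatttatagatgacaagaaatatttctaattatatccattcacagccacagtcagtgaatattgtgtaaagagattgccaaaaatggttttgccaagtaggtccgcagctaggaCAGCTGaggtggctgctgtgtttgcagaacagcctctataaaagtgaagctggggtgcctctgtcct
Mylpf, chr7:127211358-127211607, plus strand: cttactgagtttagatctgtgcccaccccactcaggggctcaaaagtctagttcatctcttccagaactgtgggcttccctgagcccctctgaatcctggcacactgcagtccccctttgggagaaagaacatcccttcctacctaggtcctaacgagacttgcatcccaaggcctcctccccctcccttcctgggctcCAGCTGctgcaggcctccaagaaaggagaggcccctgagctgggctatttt
The Myh4 window holds 2 E boxes and the Mylpf window 1, while those of Myh1 and Myh2 hold 0. Myh4 also has 1 match each to the MEF2 and CArG motifs, searched on both strands and found in 2.92% and 1.47% of all promoters. The windows of Myh1 and Myh8 hold 1 MEF2 match each as well, and that of Myl3 holds 1 CArG match. A match describes these letters and is not evidence of binding.

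Markers of young or regenerating muscle were the list nearest to Myh3 and Myh8 in meaning. All 12 were above 0 with a median of 0.81, and the list took 0.0646, 0.158 and 0.100% of reads in cKO and 0.0449, 0.0439 and 0.0838% in controls. Limma and edgeR called none, DESeq2 called 2, and 6 had an unadjusted p under 0.05. Igfn1, a Z-disc protein, had a log2 fold change of 1.46 ± 0.36 with an adjusted p of 0.123 (limma, Benjamini-Hochberg), the cadherin Cdh15 of satellite cells had 0.99, and Myog, the myogenin gene, had 0.85. In this list, as for Myh8, control replicate 3 lay above cKO replicate 1.

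Other sarcomeric myosins were mixed in level and direction. The light chain Myl4 of atria and young muscle had 1478, 5065 and 4038 normalised reads in cKO and 1829, 1432 and 4085 in controls, with overlap. Cardiac Myh6, beside Myh7 on chromosome 14, had 31.6, 130 and 36.5 normalised reads in cKO and 21.9, 59.3 and 133 in controls. Of 6 tested genes in this list 3 were above 0, with a median of 0.14. Limma and edgeR called none of them, and Myl6b, a light chain of slow and young fibres, was the 1 called by DESeq2 and the 1 with an unadjusted p under 0.05, at 0.85 ± 0.20 on the log2 scale, with an adjusted p of 0.0874 (limma, Benjamini-Hochberg). The 10 cardiac markers, of which 8 were analysed here, summed to 0.0182 to 0.0623% of reads in cKO and 0.0172 to 0.0523% in controls. Limma and edgeR called none of the 7 tested, DESeq2 called 1 lower, and 1 had an unadjusted p under 0.05.

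Of 8 non-muscle and smooth muscle myosin genes, 3 fell, 0 rose and 5 were not called, with 3 of the 8 above 0 and a median of −0.66. Myh11, the smooth muscle heavy chain, had 1435, 1524 and 1240 normalised reads in cKO and 22862, 41998 and 32477 in controls. The lowest control was far above every cKO library, and the log2 fold change was −4.50 ± 0.23 with an adjusted p of 0.000107 (limma, Benjamini-Hochberg). Myl9, the smooth muscle regulatory light chain, had a log2 fold change of −3.45 ± 0.22 with an adjusted p of 0.000342. Myl6, the essential light chain of smooth and non-muscle myosin, had −1.38 ± 0.18 with an adjusted p of 0.00913 (limma, Benjamini-Hochberg), and lost its call without cKO replicate 2 or 3, at up to 0.0925. Of 10 smooth muscle markers, limma, edgeR and DESeq2 each called 8 lower, where they called 0.889, 0.668 and 3.58% of all genes lower.

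Profiles most like that of the adult heavy chains were sought among the 11106 other genes that code for protein and averaged 100 or more normalised reads. Their mean centred log2 profile over the 6 libraries was correlated with each gene, as a description, since the 6 points share their libraries and the 2 groups. The 10 highest Pearson r were 0.995 for Kars, 0.994 for Ttn, 0.993 for Yipf7, 0.992 for Tpm1, 0.991 for Ndrg2, 0.991 for Rxrg, 0.988 for Igf2bp2, 0.986 for Tnni2, 0.985 for Aldoa and 0.985 for Vegfa. Ttn is titin, Tpm1 a tropomyosin, Aldoa the muscle aldolase and Kars the lysyl-tRNA synthetase. Pearson r takes no account of the size of a change. Kars ranged only from 1389 to 1610 normalised reads over the 6 libraries, and Ttn from 34303 to 82200. Acta1, the skeletal muscle actin, stood at rank 12.

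Markers of other tissues differed between libraries. Liver markers took 0.000193 to 0.00768% of reads in cKO libraries, and 1.35, 0.00234 and 0.00909% in control replicates 1, 2 and 3. In cKO replicate 1, 7 of the 10 liver markers had 0 reads, Alb among them. Autonomic neuron markers took 0.00322 to 0.00429% of reads in cKO libraries and 0.00289, 0.00801 and 0.0493% in control replicates 1, 2 and 3, and Snap25 had 0 reads in all 3 cKO libraries. Epithelial markers took 0.00259 to 0.00568% in cKO and 0.00335 to 0.0412% in control libraries, and adipocyte markers 0.0671 to 0.134% in cKO and 0.0486 to 0.0931% in controls. Blood cell markers took 0.111 to 0.179% of reads in cKO and 0.0429 to 0.168% in controls. The part that the amount of skeletal muscle RNA in each sample has in the myosin values was not tested, nor was that of any of these tissues. With the liver-rich control replicate 1 left out, the log2 fold changes were 0.98 for Mylpf, 0.89 for Myl1, 0.71 for Myh1, 0.83 for Myl3, 0.82 for Myh2, 0.66 for Myh7, 0.76 for Myh3 and 0.77 for Myl2. Those of Myh4 and Myh8 were 1.03 and 0.59, against 1.53 and 0.85 with all libraries.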

How the data were processed

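Per the labels, uterine total RNA (Trizol) gave 1 library per animal, and both groups were processed together. The submitters' processing notes name the build GRCm39 and list featureCounts, HISAT2 and SAMtools with no versions. However, 25239 of 25988 genes have the coordinates of GENCODE vM21 (GRCm38), the build used here. The deposited signal values are gene counts divided by 1 size factor per library: 100% of them came out as whole reads, within 0.01 reads, once divided by the smallest step of their column. No sample column was left unused. The deposited table also holds the authors' log2 fold changes and p-values (none for 318 genes); no label names the tool behind them.

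The design foresaw edgeR for raw counts and limma for other units. The main test was thus limma 3.58.1 in R 4.3.3 (trend, robust) on log2(value + 1), which understates the change of low genes, after edgeR 4.0.16's filterByExpr on the recovered reads, without covariates, with Benjamini-Hochberg adjustment over 16314 genes (45 higher, 145 lower). On simulated data it called 0% of 1.5-fold, 6.12% of 2-fold, 67.3% of 4-fold and 80% of 8-fold changes, and 0.0635% of unchanged genes. The p-values measure the spread between 3 animals a group. Alternatives were pseudocounts of 0.5 and 5, no filter, TMM scaling, edgeR, DESeq2 1.42.0, a replicate block, other lengths, and leaving out each library. Coding sequences were aligned with mafft 7.526. Named genes are the 10 members, all called genes and up to 4 genes of smallest p of each list described, the 10 most alike to the adult heavy chains, and Tcf21; Myh6, Acta1, Alb, Foxa2, Snap25, Mylf-ps, Tnnc2, Mylk4 and neighbouring genes of the members were added after their values were seen. Some genes that this rule takes are left out of the text. Des was likewise named after its values were seen. The members and lists were chosen with earlier results of these data known. Means carry the standard deviation, fold changes the standard error.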

Additional observations from a re-analysis of the deposited data

How the results depend on the processing

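Under all 13 alternatives the 10 myosin genes kept a fold change above 0, from 0.27 to 2.24 on the log2 scale. The number called by limma, 0, was 2 without a filter (Mylpf and Myl1), 4 with DESeq2 and 0 to 1 when 1 library was left out. With the replicate block it was 1 (Myh4, adjusted p 0.0401), but same-numbered animals did not deviate together, with correlations of 0.00843, −0.176 and 0.0438, so the numbers are read as names only. Over all genes, 45 were higher, against 82 without a filter, 13 with edgeR, 285 with DESeq2 and 1 to 117 when 1 library was left out. Of lower genes there were 145, against 584 with DESeq2 and 42 to 347 when 1 library was left out. The replicate block gave 34 higher and 149 lower genes. Myh7b, at 0.34, was at −0.16 without cKO replicate 2, −0.0074 without control replicate 1 and up to 0.99 without cKO replicate 1, and the cause was not tested. The share differences moved by less than the SD over the 3 controls under other lengths and without any 1 library, but some moved by more than the smaller SD over the 3 cKO libraries. Leaving out 1 library gave −1.77 to −0.50 points for Myh7, −1.13 to 0.43 for the developmental chains and −2.70 to −0.81 for Myl2, which was also at −2.69 on transcript length. The myosins had at least 936 normalised reads in each library, and the effect of depth on their calls was not tested.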

Other observations

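Non-coding genes lie among the heavy chains on chromosome 11. Myhas, an antisense gene at chr11:67211256-67237573 that overlaps the end of Myh1 and reaches up to Myh4, had 381.9, 404.7 and 504.9 normalised reads in cKO and 245.1, 317.3 and 289.1 in control libraries. The groups did not overlap, and the log2 fold change was 0.60 ± 0.20 with an adjusted p of 0.218 (limma, Benjamini-Hochberg). 9430073C21Rik is an antisense gene that overlaps the end of Myh2 and lies before Myh1. It had 313, 385 and 631 normalised reads in cKO and 346, 244 and 379 in controls, with overlap. The intergenic gene 2310065F04Rik, between Myh3 and Myh2, had 121, 140 and 125 normalised reads in cKO and 64.6, 213 and 87.2 in controls, also with overlap. Without a stated strand setting, reads of Myhas and Myh1, or of 9430073C21Rik and Myh2, cannot be told apart where they overlap.

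Myh13, the heavy chain of extraocular and laryngeal muscle that follows Myh8 on the chromosome, was at 0.93, 41.9 and 17.7 normalised reads in cKO and 26.8, 94.4 and 0 in controls. The groups overlapped, and every value lay below the lowest of its neighbour Myh8, 1928 normalised reads.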
